A study of Mus musculus with 18 samples.

Results

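The genes described are 10 surface molecules by which dendritic cells (DCs) stimulate or restrain T cells, the B7 family members Cd80, Cd86, Icosl, Cd274, Pdcd1lg2, Cd276 and Vsir together with Cd83, Havcr2 and Cd200. They were chosen by symbol and are 10 of the 54232 genes in the read count table. All 10 were among the 17074 genes that passed the filter on low counts. The RNA came from 18 libraries of DCs of C57BL/6J mice, all of the genotype CD11a KO. Itgal encodes CD11a, a subunit of the leukocyte integrin LFA-1. Sorted from the lamina propria of the small intestine or from the intestinal lymph node, the DCs were single-positive for CD11b or for CD103 or double-positive for both, with 3 libraries in each of the 6 groups of tissue and subset. The protocols of the series describe mice at steady state, mice given Salmonella and mice without mesenteric nodes, and the labels do not say which treatment, or what age, these animals had. Also, no wild-type library was analysed here, so the values bear on tissue and subset and not on the genotype. The labels do not say whether the replicates came from separate animals, so p-values measure the spread between these libraries, which may be technical.

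A T cell that meets its antigen also reads a second set of signals from the DC. CD80 and CD86 engage CD28, which costimulates, and CTLA-4, which restrains, whereas ICOSL engages ICOS. PD-L1 (Cd274) and PD-L2 (Pdcd1lg2) engage the inhibitory receptor PD-1, VISTA (Vsir) and B7-H3 (Cd276) are B7 relatives mostly described as inhibitory, and CD200 restrains myeloid cells through its receptor CD200R. TIM-3 (Havcr2) is a checkpoint receptor that conventional DCs carry themselves. CD83 is a maturation marker of DCs that keeps MHC class II and CD86 at the surface by opposing the ubiquitin ligase MARCH1. In the intestine, DCs take up antigen in the lamina propria and carry it in lymph to the draining node, maturing as they move. Read counts measure RNA and not protein at the surface.

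Total counts per library lay between 23574292 and 46901985, and levels are given as CPM, counts relative to the TMM-scaled library total. Changes were called where the quasi-likelihood test of edgeR gave a Benjamini-Hochberg adjusted p under 0.01, over all genes tested, and the fold change was over 2. Itgal was read in every library, at 6.45 to 26.6 CPM (counts of 153 to 1239), so the counts per gene do not show the knockout. All 5 markers of conventional DCs lay at 10 CPM or more in each group, and summed to 63610 to 77682 CPM in lamina propria and 18951 to 46266 CPM in lymph node libraries. The MHC class II genes H2-Ab1 and Cd74 made up most of these sums. Flt3 was higher in the node in each subset, for CD103+ DCs at 1032 CPM against 624 CPM in lamina propria. Zbtb46 and Itgax were lower in the node in each subset. Summed markers of type 1 DCs, the CD103+ lineage, were highest in the CD103+ groups of each tissue (8559 to 8952 and 1912 to 1989 CPM). In the node Irf8 (1615 CPM) made up most of that sum, and Xcr1 and Clec9a were also highest in CD103+ DCs. There Batf3 (183 against 156 CPM) and Itgae (46.1 against 35.4 CPM) were higher in double-positive than in CD103+ DCs. Tlr3 was lowest in node CD103+ DCs (8.65 CPM, against 22.2 in CD11b+ and 18.6 in double-positive DCs). Summed markers of type 2 DCs, the CD11b+ lineage, were highest in CD11b+ and double-positive DCs of lamina propria (2090 to 3074 CPM) and CD11b+ DCs of the node (766 to 1213 CPM). In node double-positive DCs they summed to only 196 to 239 CPM. Type 1 markers summed to 944 to 1103.5 CPM there and to 998 to 1144 CPM in lamina propria double-positive DCs. Irf8 was at 689 CPM in the former and Itgae at 812 CPM in the latter, where Irf8 was at 83.6 CPM. The double-positive groups of the 2 tissues thus differed in lineage markers. The genes of the sorting proteins were lower in the node in each subset, but still differed there by label. Itgae, which encodes CD103, was at 1337 CPM in lamina propria CD103+ DCs and at 35.4 CPM in those of the node, and Itgam, which encodes CD11b, was at 68.5 and 5.16 CPM in the double-positive DCs of the 2 tissues. In the node, Itgae was at 5.97 CPM in CD11b+ DCs, and Itgam at 20.8 CPM in CD11b+ and 0.438 CPM in CD103+ DCs. The 9 lamina propria libraries held the Y-linked Ddx3y (up to 74.4 CPM) and almost no Xist, while the lymph node libraries held Xist. Replicate 3 of lymph node CD11b+ and of lymph node double-positive DCs held both. Tissue and the sex of the animals therefore cannot be told apart, and results that changed without these 2 libraries are given with and without them.

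Of the marker lists for other cells, that of T cells differed most between tissues. The 12 T cell genes summed to 8.69 to 48.6 CPM in lamina propria and 418 to 903 CPM in lymph node libraries, and all 12 lay at 10 CPM or more in each node group. The 9 B cell genes summed to 399 to 594 and 281 to 1112 CPM, the 10 macrophage genes to 38.7 to 1492 and 154 to 537 CPM, and the 10 epithelial genes to 57.7 to 849.8 and 27.0 to 70.2 CPM, in lamina propria and node respectively. Plasma cell genes (545 to 2219 against 345 to 1649 CPM), plasmacytoid DC genes (131 to 300.2 against 229 to 362 CPM) and stromal genes (5.34 to 113 against 8.28 to 75.8 CPM) overlapped between tissues. In bulk RNA, fewer cells of a type and less RNA per cell cannot be told apart. The part of other cells in the differences below was not tested.

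Positions are those of GRCm38. Cd80 (ENSMUSG00000075122, chr16:38455561-38496335, plus strand), Cd86 (ENSMUSG00000022901, chr16:36603869-36666081, minus strand) and Cd200 (ENSMUSG00000022661, chr16:45382135-45409053, minus strand) share a chromosome. Cd274 (ENSMUSG00000016496, chr19:29367455-29388095, plus strand) and Pdcd1lg2 (ENSMUSG00000016498, chr19:29410919-29471161, plus strand) are neighbours, 22823 bases apart. Icosl (ENSMUSG00000000732, chr10:78069302-78083913) and Vsir (ENSMUSG00000020101, chr10:60346851-60372684) both lie on the plus strand. Cd83 (ENSMUSG00000015396) is at chr13:43784775-43803132 on the plus strand, Havcr2 (ENSMUSG00000020399) at chr11:46454935-46481255 on the plus strand, and Cd276 (ENSMUSG00000035914) at chr9:58524298-58555437 on the minus strand. Genes on the opposite strand overlap Pdcd1lg2 (A930007I19Rik), Vsir (Cdh23), Cd276 (Gm10657) and Cd274 (AC119228.1). If these reads, like those of the study's own DC libraries, were counted without regard to strand, reads from such pairs cannot be told apart.

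Of the 5 genes that were higher in the node in all 3 subsets (values below), 4 had a start site in the RefSeq promoter table of GRCm38.p6. The 250 bases upstream of that start, or 184 for Icosl, are shown, because these genes changed together, with matches to the NF-kB motif in capitals. The windows are chr10:78069118-78069301 for Icosl, chr19:29367188-29367437 for Cd274, chr19:29410669-29410918 for Pdcd1lg2, all on the plus strand, and chr16:45409054-45409303 on the minus strand for Cd200. RefSeq and GENCODE place the starts of Icosl and Cd274 at different bases, and the Icosl stretch ends where the gene begins in GENCODE.
Icosl: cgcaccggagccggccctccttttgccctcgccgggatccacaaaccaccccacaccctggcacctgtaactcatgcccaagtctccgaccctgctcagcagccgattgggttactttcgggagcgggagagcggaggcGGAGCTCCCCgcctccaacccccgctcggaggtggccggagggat
Cd274: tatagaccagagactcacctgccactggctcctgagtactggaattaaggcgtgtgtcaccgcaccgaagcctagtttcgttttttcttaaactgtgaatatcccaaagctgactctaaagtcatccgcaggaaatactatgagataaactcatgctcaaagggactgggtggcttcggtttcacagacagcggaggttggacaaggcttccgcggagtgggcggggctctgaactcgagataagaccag
Pdcd1lg2: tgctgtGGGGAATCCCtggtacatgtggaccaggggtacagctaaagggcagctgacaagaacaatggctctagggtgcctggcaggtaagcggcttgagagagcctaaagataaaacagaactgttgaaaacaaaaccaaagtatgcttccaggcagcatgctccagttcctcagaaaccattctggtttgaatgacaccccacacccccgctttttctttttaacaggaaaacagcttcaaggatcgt
Cd200: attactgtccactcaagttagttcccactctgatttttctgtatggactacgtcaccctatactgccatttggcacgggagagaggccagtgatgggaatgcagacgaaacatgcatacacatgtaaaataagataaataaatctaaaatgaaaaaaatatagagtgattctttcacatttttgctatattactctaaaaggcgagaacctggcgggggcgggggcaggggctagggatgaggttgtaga
Motifs were sought on both strands from 250 bases before to 50 after the start in the 8 of the 10 genes that had a window. The NF-kB motif was found in Icosl, from -111 to -102, and in Pdcd1lg2, from -244 to -235, so in 2 of 8 windows, where 8.459% of 32851 promoter windows held it. AP-1 (TGANTCA) matched in 2 of 8, Cd80 from -42 to -36 and Havcr2 from -200 to -194, against 7.808% of windows. These positions count from the RefSeq start. The windows of Cd80 (chr16:38458683-38458982) and Cd276 (chr9:58554984-58555283) lie within the genes as GENCODE places them, downstream of the GENCODE start. The interferon-response motif ISRE (GAAA repeated after 2 bases of any kind) matched in 0 of 8, against 3.443%. The motifs do not overlap in these windows, and a match is a description of letters only.

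The group covered a wide range of levels. Per kilobase of exon, Cd83 was the highest of the 10 in each group, from 197 CPM per kb in lamina propria CD11b+ to 1065 CPM per kb in lymph node double-positive DCs, above 98.7% to 99.8% of the genes tested. Cd276 was the lowest throughout, at 0.397 CPM per kb or less. Second place depended on the group. In lamina propria it went to Havcr2 in CD11b+ (69.6 CPM per kb) and double-positive DCs (139.6 CPM per kb) and to Cd86 in CD103+ DCs (152 CPM per kb, with Havcr2 at 151). In the node it went to Icosl in all 3 subsets, at 101 to 139 CPM per kb.

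**Figure D1:**
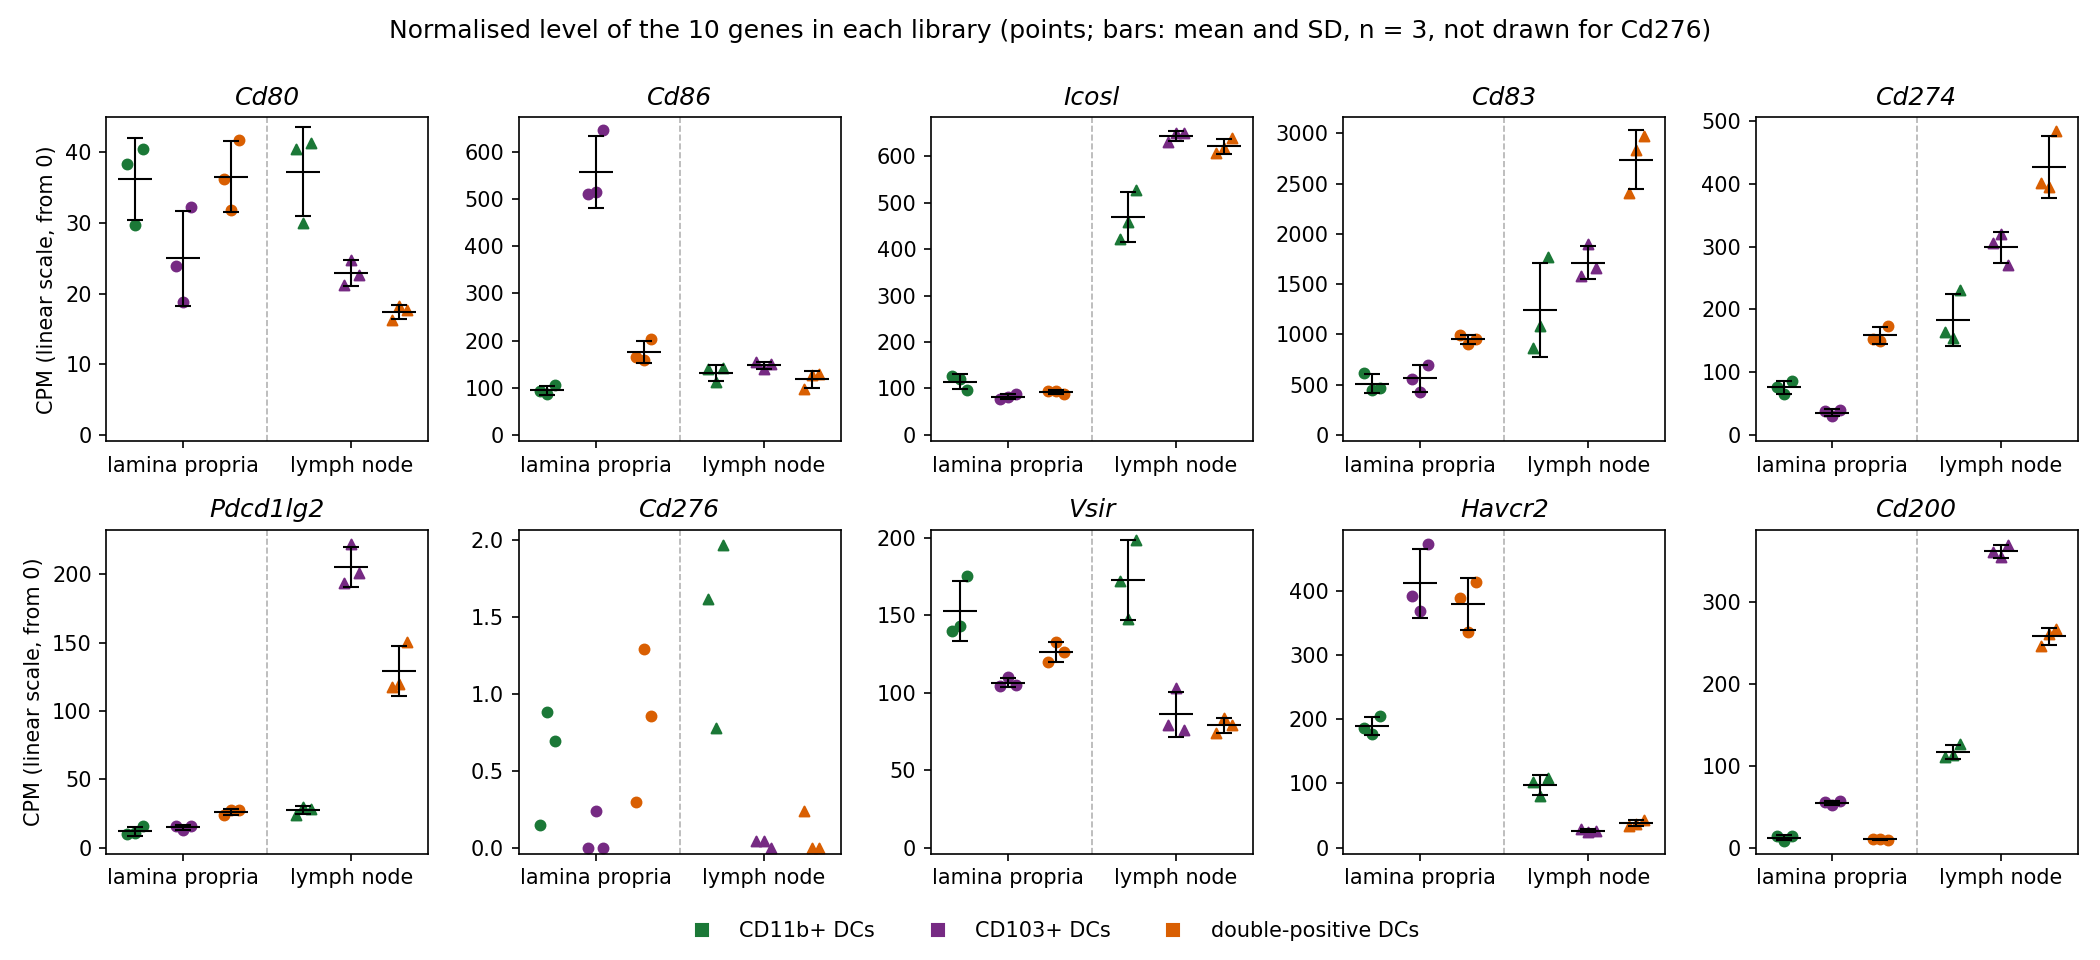
CPM of each of the 10 genes (vertical axis, linear, from 0, own range per panel) in each library, by tissue and subset. Circles are lamina propria and triangles lymph node libraries, and bars are the mean and SD of 3 libraries, not drawn for Cd276. Icosl, Cd83, Cd274, Pdcd1lg2 and Cd200 sit higher in the node within each subset, Havcr2 sits lower, and Cd86 stands out in lamina propria CD103+ DCs at 512 to 646 CPM.

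Between lymph node and lamina propria, the 10 genes did not move together. Icosl, Cd83, Cd274, Pdcd1lg2 and Cd200 were higher in the node in all 3 subsets, which makes 5 of 10 where 7.21% of all genes were called higher in all 3. None of the 10 was called lower in all 3 (2.40% of all genes), although Havcr2 was lower in each. In CD11b+ DCs 5 genes were called, all higher, against a background of 15.2% of genes called in either direction (10.3% higher and 4.93% lower). In CD103+ DCs 7 were called, 5 higher and 2 lower, against 35.0% (19.8% higher and 15.1% lower). In double-positive DCs it was also 7, 5 higher and 2 lower, against 32.1% (18.6% higher and 13.6% lower). The median log2 fold change of the 10 genes was 1.23, 0.74 and 0.43 in the 3 subsets, beside medians over all genes of 0.03, 0.04 and 0.07.

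**Figure D2:**
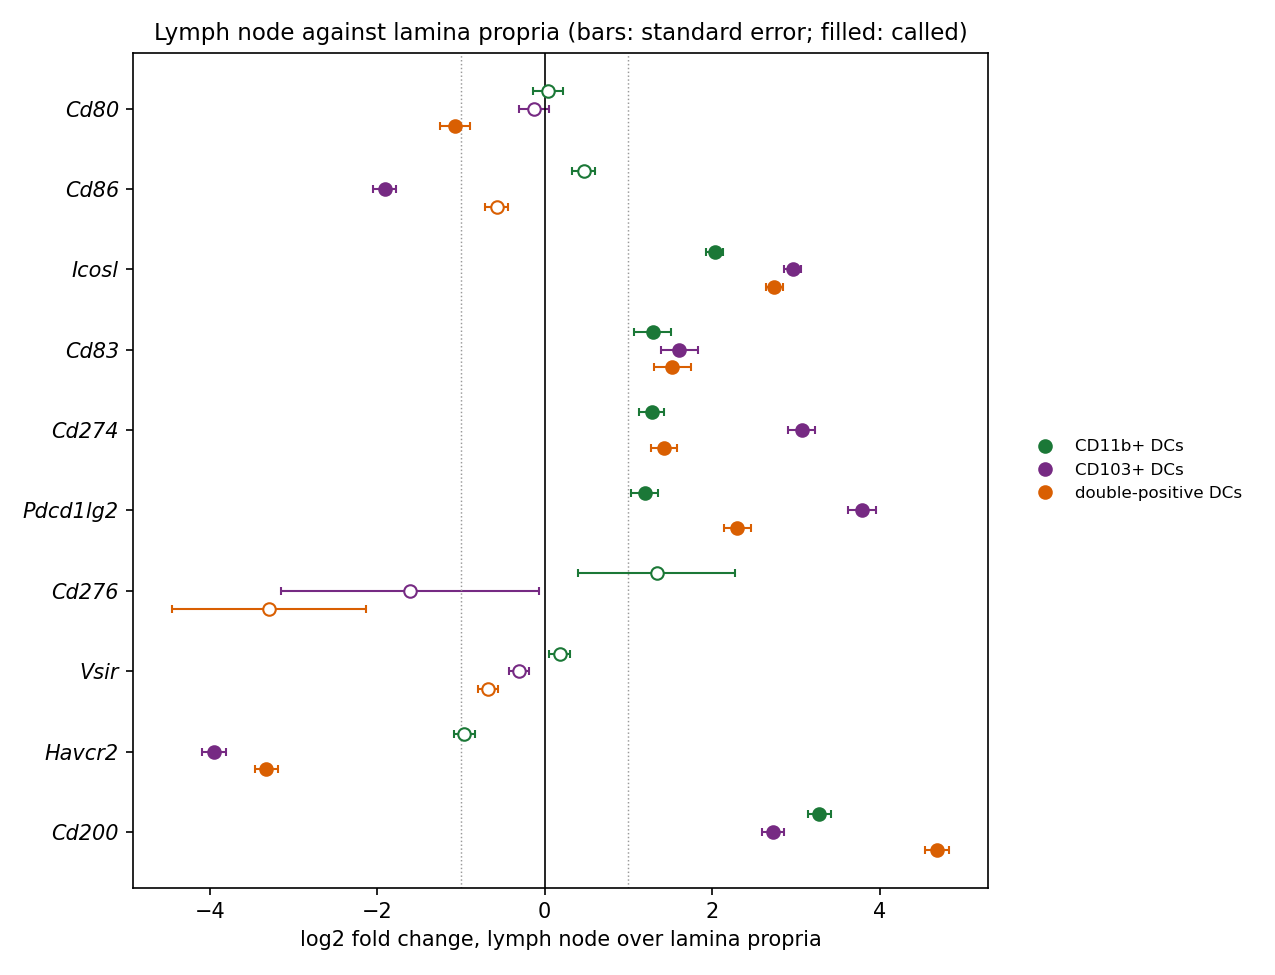
The log2 fold change of lymph node over lamina propria (horizontal axis) for each gene in CD11b+, CD103+ and double-positive DCs. Bars are standard errors, filled points are called, and dotted lines mark a 2-fold change. All 3 points lie to the right of the upper dotted line for Icosl, Cd83, Cd274, Pdcd1lg2 and Cd200, and Cd276 has the widest bars because it was near 0.

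CD80 and CD86 are the ligands of CD28, and their genes differed in range. Cd80 spanned only 2.14-fold between its highest and lowest group. In lamina propria it was at 38.4, 29.7 and 40.5 CPM in CD11b+, 23.9, 18.9 and 32.2 in CD103+ and 36.2, 31.8 and 41.7 in double-positive DCs. In the node the libraries had 40.5, 30.0 and 41.3 CPM in CD11b+, 21.2, 24.8 and 22.7 in CD103+ and 16.3, 18.2 and 17.7 in double-positive DCs. The tissue ranges of single-positive DCs overlapped, whereas for double-positive DCs every node library lay below every lamina propria library. There Cd80 was lower in the node by a log2 fold change of -1.07 ± 0.18 (SE, adjusted p = 7.8e-05), and without lamina propria double-positive replicate 3 the value was -0.97, short of a 2-fold change. In CD11b+ and CD103+ DCs the differences were 0.04 ± 0.18 (adjusted p = 0.88) and -0.12 ± 0.18 (adjusted p = 0.57).

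Cd86 was highest in lamina propria CD103+ DCs, where the 3 libraries had 512, 514 and 646 CPM. Lamina propria CD11b+ DCs had 93.2, 86.1 and 105 CPM and double-positive DCs 166, 159.8 and 203 CPM. All 9 node libraries lay between 97.5 and 154 CPM, and only CD103+ and double-positive DCs of the node did not overlap in range. In lamina propria, CD103+ DCs had 557 ± 76.5 CPM (SD, n = 3) and stood apart from every other library of the series. Cd86 was lower in the node in CD103+ DCs, by a log2 fold change of -1.91 ± 0.14 (SE, adjusted p = 3.2e-09), a 3.76-fold difference. In CD11b+ DCs the value was 0.46 ± 0.13 (adjusted p = 0.012) and in double-positive DCs -0.58 ± 0.13 (adjusted p = 0.0014), neither over 2-fold. The tissue effect differed between CD103+ and CD11b+ DCs by -2.37 ± 0.19 on the log2 scale (adjusted p = 6e-08) and between double-positive and CD11b+ DCs by -1.04 ± 0.19 (adjusted p = 0.00055). The latter was under 2-fold without lamina propria CD11b+ replicate 2 (-0.97), lamina propria double-positive replicate 3 (-0.93) or lymph node double-positive replicate 1 (-0.93).

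Icosl, the ligand of ICOS, separated the tissues cleanly. The 9 lamina propria libraries lay between 77.4 and 128 CPM and the 9 node libraries between 421 and 651 CPM. In lamina propria CD11b+ DCs had 115 ± 16.1 CPM, CD103+ DCs 82.6 ± 5.81 and double-positive DCs 92.7 ± 4.20 CPM (SD, n = 3). In the node the same subsets had 468 ± 53.7, 643 ± 11.4 and 621 ± 15.8 CPM. The rises were 2.03 ± 0.10, 2.96 ± 0.11 and 2.74 ± 0.10 on the log2 scale (SE), with adjusted p of 4.5e-10, 7.4e-13 and 2.6e-12. Subsets differed by less than 2-fold in either tissue. The rise in CD103+ DCs exceeded that in CD11b+ DCs by 0.93 ± 0.14 (adjusted p = 4.9e-05), under 2-fold, and by 1.02 (adjusted p = 5e-05) without both libraries that held Xist and Ddx3y and 1.04 without lamina propria CD11b+ replicate 3, both over 2-fold.

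Cd83 had the highest RNA level of the group and rose by similar amounts in each subset. Lamina propria CD11b+ DCs had 616, 444 and 464 CPM, CD103+ DCs 561, 431 and 697 CPM and double-positive DCs 998, 908 and 953 CPM. Node CD11b+ DCs had 866, 1087 and 1767 CPM, CD103+ DCs 1583, 1899 and 1662 CPM and double-positive DCs 2412, 2835 and 2971 CPM. Within each subset the tissues did not overlap, and node double-positive DCs lay above all other groups. CD11b+ DCs rose by 1.29 ± 0.22 on the log2 scale (SE, adjusted p = 0.0002), CD103+ DCs by 1.61 ± 0.22 (7.2e-06) and double-positive DCs by 1.52 ± 0.22 (1.4e-05). The F test found no difference of the tissue effect between subsets for Cd83 (adjusted p = 0.65). The call in CD11b+ DCs rested on lymph node CD11b+ replicate 3, the highest of its group, and without it the value was 0.94 (adjusted p = 0.00078), under 2-fold. It was 0.95 without both libraries that held Xist and Ddx3y.

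The PD-1 ligands Cd274 and Pdcd1lg2 rose in every subset, most in CD103+ DCs. Cd274 was at 76.3, 65.2 and 85.3 CPM in lamina propria CD11b+, at 38.4, 29.5 and 39.2 in CD103+ and at 153, 149 and 174 in double-positive DCs. Node libraries had 164, 155 and 231 CPM in CD11b+, 306, 319.7 and 271 in CD103+ and 401, 395 and 484 in double-positive DCs. CD103+ DCs thus had the lowest group mean in lamina propria (35.7 CPM) and lay second in the node (299 CPM), and tissues did not overlap within a subset. The rise in CD103+ DCs was 3.07 ± 0.16 on the log2 scale (SE, adjusted p = 7.3e-11), against 1.28 ± 0.15 (6e-06) in CD11b+ and 1.43 ± 0.15 (4.9e-07) in double-positive DCs. The effect in CD103+ DCs was larger than in CD11b+ DCs by 1.79 ± 0.22 (adjusted p = 5.2e-06), and that in double-positive DCs smaller than in CD103+ DCs by -1.64 ± 0.21 (adjusted p = 3.4e-05).

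Pdcd1lg2 was at 9.80 to 16.1 CPM in the lamina propria CD11b+ and CD103+ libraries and at 23.8, 27.5 and 27.2 CPM in the double-positive ones. In the node it was at 24.1, 29.6 and 28.4 CPM in CD11b+ DCs and reached 194, 222 and 201 CPM in CD103+ and 118, 119 and 150.4 CPM in double-positive DCs. Node CD11b+ DCs overlapped with lamina propria double-positive DCs, and the other 2 node groups lay above all else. The rise was 3.79 ± 0.17 in CD103+ (SE, adjusted p = 8.5e-12), 2.30 ± 0.16 in double-positive (2.5e-09) and 1.19 ± 0.16 in CD11b+ DCs (1.9e-05) on the log2 scale. Each pair of subsets differed in this effect, CD103+ from CD11b+ DCs by 2.6 ± 0.22 (adjusted p = 1.2e-07), double-positive from CD11b+ DCs by 1.11 ± 0.22 (adjusted p = 0.0011) and double-positive from CD103+ DCs by -1.49 ± 0.22 (adjusted p = 9.9e-05). The second of these fell under 2-fold with total counts in place of TMM (0.80) and without lamina propria CD11b+ replicate 3 (0.86), lymph node CD11b+ replicate 1 (0.99) or lymph node double-positive replicate 3 (0.97).

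Vsir and Cd276, the remaining B7 relatives, were not called between tissues in any subset. For Vsir, lamina propria CD11b+ DCs had 153 ± 19.6 CPM, CD103+ DCs 106 ± 3.04 and double-positive DCs 126 ± 6.52 CPM, and the same subsets had 173 ± 25.7, 86.2 ± 14.6 and 78.9 ± 5.07 CPM in the node (SD, n = 3). It was highest in the CD11b+ groups, which overlapped, and double-positive DCs did not overlap between tissues. The log2 fold changes were 0.18 ± 0.12 (adjusted p = 0.27), -0.31 ± 0.12 (0.039) and -0.68 ± 0.12 (0.00015), the last short of a 2-fold change. Cd276 was near the limit of detection. Its counts were 4, 24 and 22 in lamina propria CD11b+, 0, 11 and 0 in CD103+ and 8, 38 and 24 in double-positive DCs, and in the node 53, 24 and 59 in CD11b+, 1, 1 and 0 in CD103+ and 6, 0 and 0 in double-positive DCs. It was thus read in all 9 libraries of lamina propria CD11b+ and double-positive and node CD11b+ DCs. No library exceeded 1.96 CPM, and no fold is given.

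Havcr2, which encodes TIM-3, was the member with the largest fall. Lamina propria libraries had 186, 177 and 205 CPM in CD11b+, 393, 369.7 and 473 in CD103+ and 389, 336 and 415 in double-positive DCs. Node libraries had 102, 80.1 and 109 CPM in CD11b+, 28.8, 25.0 and 25.9 in CD103+ and 34.0, 36.7 and 43.1 in double-positive DCs. The order of the subsets was reversed between tissues, since CD103+ and double-positive DCs lay above CD11b+ DCs in lamina propria and below them in the node, with no overlap. Havcr2 was lower in the node by -3.96 ± 0.14 in CD103+ DCs (SE, adjusted p = 8.9e-13), a 15.5-fold difference, and by -3.33 ± 0.14 in double-positive DCs (adjusted p = 7.2e-12), a 10.0-fold difference. In CD11b+ DCs the value was -0.96 ± 0.13 (adjusted p = 1.7e-05), a 1.95-fold difference that passed 2-fold without lymph node CD11b+ replicate 3 (-1.06), lamina propria CD11b+ replicate 2 (-1.01) or lymph node CD11b+ replicate 1, and without both libraries that held Xist and Ddx3y (-1.05). The difference of the effect from that in CD11b+ DCs was -2.99 ± 0.18 for CD103+ (adjusted p = 3.1e-09) and -2.36 ± 0.18 for double-positive DCs (adjusted p = 1.7e-07).

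Cd200 spanned 36.2-fold between its highest and lowest group mean, the widest of the 9 genes other than Cd276. In lamina propria it was at 13.6, 8.60 and 13.8 CPM in CD11b+, 55.3, 52.2 and 56.8 in CD103+ and 9.98, 10.7 and 9.24 in double-positive DCs. In the node it was at 111, 113 and 127 CPM in CD11b+, 361, 355 and 370.1 in CD103+ and 246, 261 and 267 in double-positive DCs. CD103+ DCs had the most Cd200 in both tissues, and the only neighbours in rank that overlapped were the lamina propria CD11b+ and double-positive groups. The rise on the log2 scale was 3.28 ± 0.13 for CD11b+ DCs (SE, adjusted p = 8.3e-11), 2.73 ± 0.13 for CD103+ DCs (1.4e-11) and 4.69 ± 0.14 for double-positive DCs (5.8e-13). The last effect exceeded that in CD11b+ DCs by 1.41 ± 0.18 (adjusted p = 1.8e-05) and that in CD103+ DCs by 1.96 ± 0.17 (adjusted p = 5.9e-07). T cells and B cells can also carry CD200. The summed T cell genes were higher in the node (above), and within it they ranged over 563 to 903 CPM in CD11b+, 464 to 837 in CD103+ and 418 to 676 in double-positive libraries. Of the 12 genes, 6 (Cd3d, Cd3e, Cd3g, Trac, Cd8b1 and Bcl11b) had node means in the same order as Cd200, highest in CD103+ and lowest in CD11b+ DCs, whereas Cd4 was highest in CD11b+ DCs (224 CPM, against 27.1 and 52.7 in CD103+ and double-positive DCs). The part of T cells in the levels of Cd200 was not tested. In CD103+ DCs the summed B cell genes were lower in the node (281 to 309.5 CPM) than in lamina propria (468 to 594 CPM), whereas Cd200, Icosl and Cd83 were higher.

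Tested over the 3 subsets together, the tissue effect differed for 8 of the 10 genes, against 31.5% of all genes (F test, adjusted p under 0.01), all but Cd83 and Cd276. Without both libraries that held Xist and Ddx3y there were 6, with Cd80 (adjusted p = 0.018) and Vsir (adjusted p = 0.015) no longer passing. Cd80 also missed, at an adjusted p of 0.013, without lamina propria double-positive replicate 3 or lymph node double-positive replicate 1. Taken pair by pair, CD103+ DCs had a higher tissue effect than CD11b+ DCs for 2 genes and a lower one for 2 (4 of 10, against 18.5% of all genes, 9.27% higher and 9.20% lower). Double-positive DCs differed from CD11b+ DCs in 5 genes, 2 higher and 3 lower (11.6%, with 5.70% higher and 5.94% lower), and from CD103+ DCs in 4, 2 higher and 2 lower (8.37%, with 4.17% higher and 4.20% lower). The 5 were Cd80 (-1.11 ± 0.25, adjusted p = 0.0032), Cd86, Pdcd1lg2, Havcr2 and Cd200. Cd80 no longer passed without both of the libraries named, at an adjusted p of 0.019, nor without lamina propria CD11b+ replicate 2 (-0.99) or lamina propria double-positive replicate 3 (adjusted p = 0.011). When the 3 tissue effects were averaged, 6 genes were called (32.7% of all genes), of which 5 were higher (19.7%) and 1, Havcr2, lower (13.0%).

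Within lamina propria, the subsets differed mainly in Cd86, Cd274 and Cd200. CD103+ DCs had more Cd86 (log2 2.55 ± 0.14, SE, adjusted p = 5.5e-10), Cd200 (2.19 ± 0.13, 1.1e-09) and Havcr2 (1.12 ± 0.13, 2.3e-06) and less Cd274 (-1.09 ± 0.15, 2.8e-05) than CD11b+ DCs, which makes 4 of 10 where 15.7% of genes were called (5.07% higher and 10.6% lower). The value of Cd274 was under 2-fold without lamina propria CD103+ replicate 2 (-0.96) or CD11b+ replicate 3 (-0.99). Double-positive DCs had more Cd274 (1.07 ± 0.15, adjusted p = 0.00016), Pdcd1lg2 (1.13 ± 0.16, 0.00015) and Havcr2 (1.00 ± 0.13, 5.3e-05) than CD11b+ DCs, 3 of 10 against 4.81% (1.14% higher and 3.67% lower). These values lay close to a 2-fold change. That of Havcr2 fell to between 0.94 and 0.99 under 4 alternative settings of the processing. It was also under 2-fold without lamina propria CD11b+ replicate 1 (0.99) or lamina propria double-positive replicate 1 (0.99). Only Pdcd1lg2 was called without lamina propria CD11b+ replicate 2 or without lamina propria double-positive replicate 3. Double-positive DCs had more Cd274 (2.15 ± 0.16, adjusted p = 1.5e-08) and less Cd86 (-1.66 ± 0.14, 5.7e-08) and Cd200 (-2.45 ± 0.13, 3.7e-10) than CD103+ DCs, 3 of 10 against 13.6% (8.10% higher and 5.52% lower). The summed macrophage genes were at 661 to 1492 CPM in CD11b+, 38.7 to 49.1 in CD103+ and 288 to 322 in double-positive DCs of lamina propria, and their part in these differences was not tested.

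In the lymph node, most of the calls set CD11b+ DCs apart from the other 2 subsets. Against CD11b+ DCs, CD103+ DCs had more Pdcd1lg2 (log2 2.91 ± 0.16, SE, adjusted p = 2.7e-10) and Cd200 (1.63 ± 0.12, 8.6e-09) and less Havcr2 (-1.87 ± 0.13, 4.6e-09), Vsir (-1.0 ± 0.12, 3e-06) and Cd276 (adjusted p = 0.0023), 5 of 10 where 25.9% of genes were called (10.2% higher and 15.6% lower). Vsir sat at the 2-fold limit and missed it with DESeq2 (-0.96), without lymph node CD103+ replicate 1 (-0.97) or CD11b+ replicate 3 (-0.93), and without both libraries that held Xist and Ddx3y (-0.90). Without lymph node CD103+ replicate 3 neither Vsir (-0.94) nor Cd276 (adjusted p = 0.013) was called.

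Double-positive DCs differed from CD11b+ DCs of the node in 8 of 10 genes, against 16.7% of all genes (6.92% higher and 9.82% lower). Pdcd1lg2 (2.24 ± 0.16, SE, adjusted p = 1.2e-08), Cd274 (1.22 ± 0.15, 6.3e-06), Cd83 (1.14 ± 0.22, 0.0004) and Cd200 (1.14 ± 0.12, 1e-06) were higher. Havcr2 (-1.36 ± 0.13, 3.5e-07), Vsir (-1.13 ± 0.12, 1.5e-06), Cd80 (-1.10 ± 0.18, 0.00011) and Cd276 (adjusted p = 0.0082) were lower. The number depended on the scaling. With total counts in place of TMM, which shifts the median of all genes by -0.37, 1 gene was higher and 4 were lower, since Cd83 (0.78), Cd274 (0.86) and Cd200 (0.78) came under 2-fold. Cd83 was also under 2-fold without lymph node CD11b+ replicate 1 (0.91). Cd276, close to the threshold, had adjusted p of 0.01 to 0.037 when any of 10 single libraries was left out and of 0.081 without both libraries that held Xist and Ddx3y. Between double-positive and CD103+ DCs of the node 0 of 10 genes were called by edgeR or by DESeq2, against 6.53% of all genes (4.69% higher and 1.84% lower). There 7 genes had an unadjusted p under 0.05, and 3 had an adjusted p under 0.01 with less than 2-fold, Pdcd1lg2 (-0.67 ± 0.15), Cd200 (-0.49 ± 0.12) and Havcr2 (0.51 ± 0.13).

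**Figure D3:**
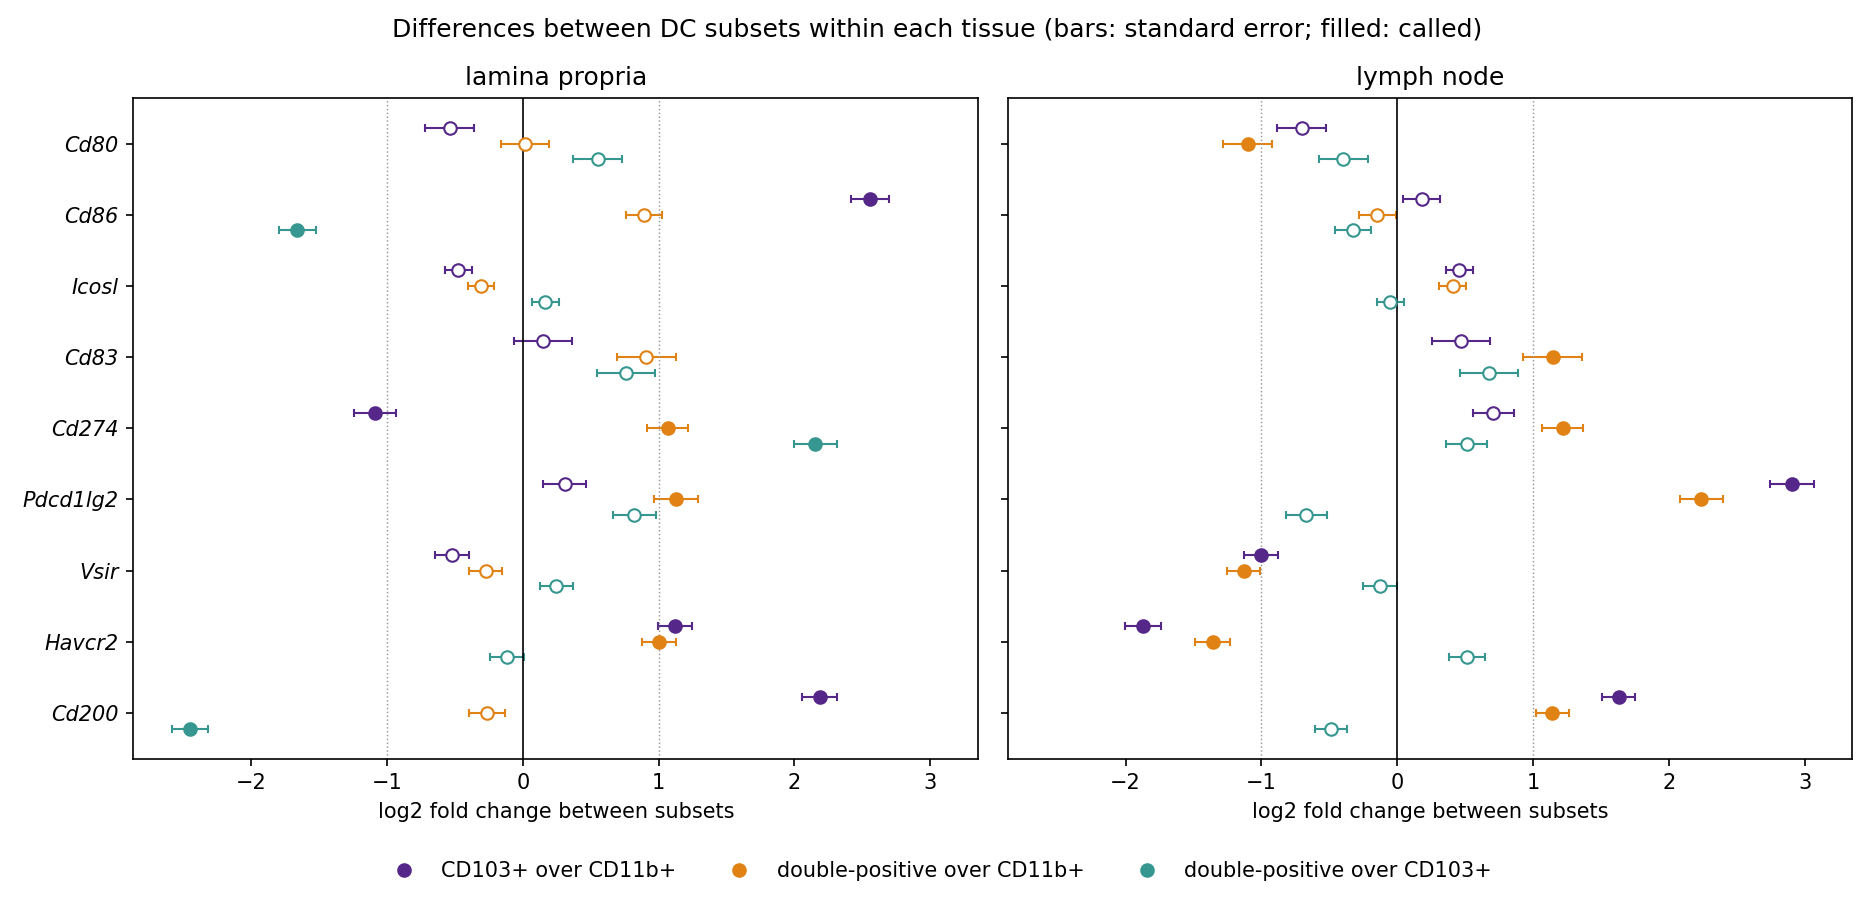
The log2 fold change between subsets (horizontal axis) within lamina propria (left) and lymph node (right), for 9 of the genes. Cd276, near 0 in several groups, is not drawn. Bars are standard errors, filled points are called, and dotted lines mark a 2-fold change. Cd86 is spread widely in lamina propria and lies near 0 in the node, and Havcr2 changes side between the tissues.

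Genes of the same pathways were counted in lists, over the mean of the 3 tissue effects, for which 32.7% of all genes were called (19.7% higher and 13.0% lower). Among other co-signalling ligands, 9 of 12 were tested, of which 4 were higher in the node and 1 lower, with a median log2 fold change of 1.01 (0.05 over all genes). Pvr, the ligand of CD226 and TIGIT, rose by 2.47 ± 0.14 (SE, adjusted p = 7e-11) and was at 99.5 ± 25.3 CPM in node CD103+ and 4.12 ± 0.72 CPM in lamina propria CD103+ DCs (SD, n = 3). In CD11b+ DCs its log2 fold change was 0.54 and not called. Ceacam1, a proposed partner of TIM-3, had a mean effect of 1.54 ± 0.16 (adjusted p = 1.4e-07) but was called only in CD103+ DCs (4.37), with 0.71 in double-positive and -0.47 in CD11b+ DCs. Nectin2, a further ligand of TIGIT, had a mean effect of 1.01 ± 0.19 (adjusted p = 0.00017) and was called in CD103+ (1.73) and double-positive DCs (1.96), with -0.65 in CD11b+ DCs. Of the regulators of the surface level of these molecules, 1 of 5 was called over the mean, a share below that of all genes. By subset, 1 was higher and 1 lower in CD103+ DCs (35.0% of all genes called). In CD11b+ (15.2%) and double-positive DCs (32.1%) 1 was lower. The gene higher in CD103+ DCs was Cmtm6, named after its values were seen (1.41), at 337 CPM in lamina propria and 897 CPM in the node. Marchf1, which encodes MARCH1, the ligase that removes CD86 and MHC class II from the surface, was lower in the node by -2.93 ± 0.11 (adjusted p = 6.2e-13). It was at 144 ± 9.66, 239 ± 33.1 and 122 ± 3.89 CPM in lamina propria CD11b+, CD103+ and double-positive DCs and at 69.7 ± 17.6, 8.89 ± 2.58 and 15.4 ± 2.26 CPM in those of the node.

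Inhibitory receptors of myeloid cells went the other way, with 0 of 12 tested higher in the node and 8 lower, and a median of -1.87. Pilra (-5.29 ± 0.21, SE, adjusted p = 6.7e-13), Siglece (-4.33 ± 0.18, 1.1e-12) and Clec4a2 (-3.67 ± 0.24, 5.1e-10) fell most. Cd200r1, which encodes the receptor of CD200 and is named here outside the naming rule, after its values were seen, fell by -2.86 ± 0.08 (adjusted p = 1.5e-14). It was at 99.0 ± 2.69, 53.4 ± 5.73 and 111 ± 3.93 CPM in lamina propria CD11b+, CD103+ and double-positive DCs and at 31.6 ± 3.11, 7.16 ± 1.65 and 6.77 ± 1.01 CPM in the node (SD, n = 3). In each subset Cd200r1 was thus lower and Cd200 higher in the node. The list of DC maturation genes had 12 of 13 tested higher in the node and 0 lower, with a median of 3.69. Ccl5 (7.27 ± 0.19, adjusted p = 6.6e-15), Cacnb3 (6.22 ± 0.17, 8.6e-15) and Fscn1 (6.08 ± 0.14, 2e-15) rose most, and the list's median was 2.29 for CD11b+ DCs, where 11 genes were higher and 1 lower, 4.64 for CD103+ DCs and 4.12 for double-positive DCs. Costimulatory and checkpoint receptors of T cells had 9 of 10 higher and 0 lower, with a median of 3.87. Pdcd1 (5.46 ± 0.41, adjusted p = 2.6e-09), Cd96 (5.00 ± 0.30, 1.7e-10) and Cd160 (4.99 ± 0.27, 3.8e-11) led this list. The exception was Btla, the receptor of HVEM, named after its values were seen, at 745 ± 74.2 CPM in lamina propria CD103+ DCs and 52.7 to 104 CPM in the means of the other 5 groups. The summed T cell marker genes were also higher in the node, and the part of T cells in this list was not tested.

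**Figure D4:**
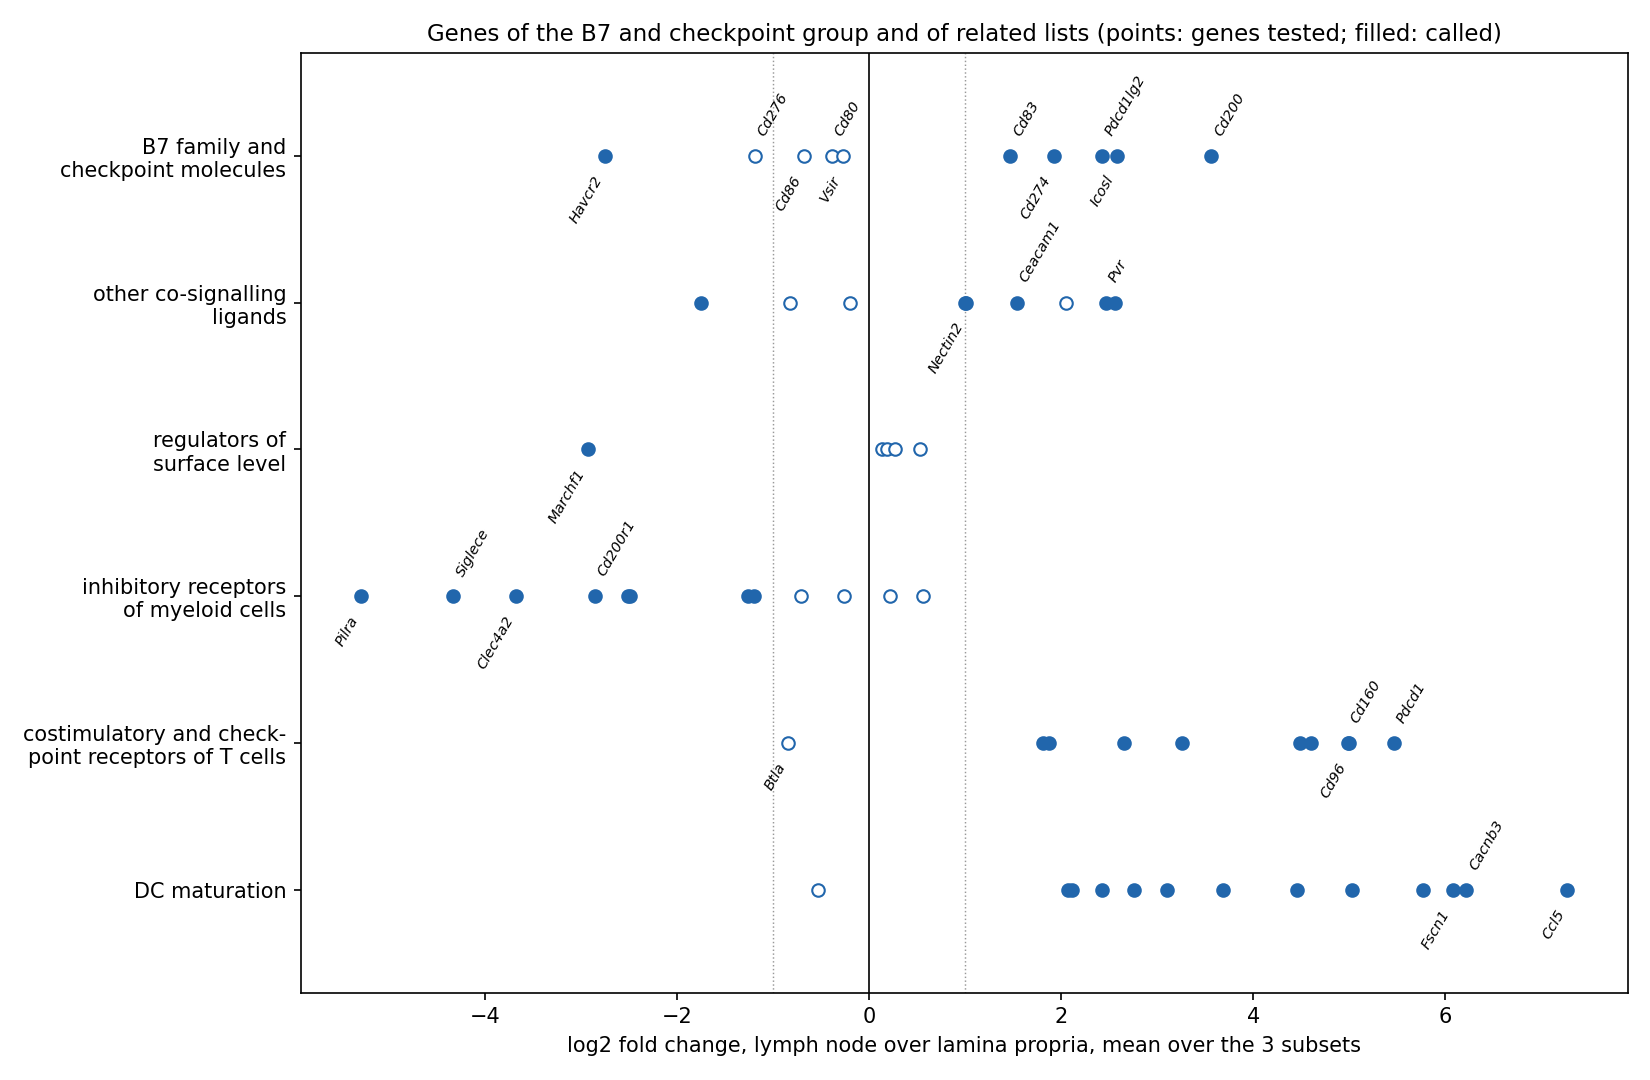
The log2 fold change of lymph node over lamina propria, as the mean over the 3 subsets (horizontal axis), for the 10 genes and for the genes tested of 5 related lists. Each point is a gene, filled points are called, dotted lines mark a 2-fold change, and only genes named in the text carry a label. The called receptors of myeloid cells (8) lie to the left, and the called DC maturation genes (12) and T cell receptors (9) lie to the right, whereas the called B7 and checkpoint genes lie on both sides (5 right, 1 left).

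The genes most like each member were found by Pearson's r of log2 CPM over the 18 libraries, among 9909 genes with a mean of at least 10 CPM in some group. The libraries share tissue and subset, so r mainly describes the pattern over the 6 groups. Icosl was most like Traf1 (r = 0.992), Traf2 (0.991) and Clu (0.989). Cd274 was most like Dusp5 (0.985), Btg1 (0.984) and 5430437J10Rik (0.980), Pdcd1lg2 most like Tmem18 (0.987), Wbp2 (0.984) and Nabp1 (0.983), and Cd200 most like Trim7 (0.988), Asap1 (0.985) and Hmgn3 (0.985). For Cd83 they were 5930403N24Rik (0.963), Cd1d1 (0.960) and Gm26535 (0.959). Havcr2 was most like Morc2a (0.992), Rasgrp4 (0.988) and Sgsm3 (0.985), and Cd86 most like Fndc7 (0.964), Fam149a (0.961) and E330020D12Rik (0.952). The closest genes were less alike for Vsir (H2-T24, 0.930, Dbf4, 0.924, and Nrm, 0.917), Cd276 (Fam78a, 0.889, and Ggct, 0.886) and Cd80 (Mitd1, 0.880, Ipo7, 0.867, and Prps1, 0.866).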

How the data were processed

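RNA from sorted DCs was sequenced, and the authors deposited raw read counts per Ensembl gene. For these 18 libraries the roles of aligner and counter are not given in the sources used. The submitters' processing notes name FastQC 0.11.7, STAR 2.6 and GRCm38 without a role, and the study's methods give, for its own DC libraries, SMART-seq amplification, unique alignments and counting without strand. The gate stated for wild-type DCs was live single CD45+ CD64- MHCIIhigh CD11c+ cells.

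Symbols were matched by identifier for 54079 of 54232 genes, with positions and exon lengths from GENCODE vM21. Counts were tested with edgeR 4.0.16 (R 4.3.3) after filterByExpr and TMM, in a quasi-likelihood fit of 6 group means (12 residual degrees of freedom), with the thresholds stated in the study's methods. The contrasts were lymph node against lamina propria within subsets, their mean, their differences and an F test of these (adjusted p under 0.01 alone), and subset pairs within tissues. CPM used TMM-scaled totals, and CPM per kb divided them by exon length. Standard errors were derived from the F statistic, and log2 CPM used a prior count of 2. The script was tested on simulated data. In lamina propria, libraries with the same replicate letter deviated together from their group means in all 3 pairs of CD103+ with CD11b+ DCs (r of 0.152 to 0.208) and of CD103+ with double-positive DCs (0.125 to 0.189), so the letters were taken to pair these groups, as seen in the data and not stated in the labels. The report's fit has no block, and the blocked fit was an alternative.

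The 10 genes, the 5 pathway lists and the 10 marker lists were chosen with earlier results of these data known. Named in the text were the 10 genes, Itgal, up to 3 called genes of each list with the largest mean tissue effect and at least 10 CPM in some group, and the 3 genes most like each member, of which 1 is not reported here. Alternatives were DESeq2 1.42.0, its size factors, total counts, other filters (none, or at least 100 counts in at least 3 libraries), adjusted p under 0.05, only the 6 libraries compared, a replicate block, the 2 libraries with Xist and Ddx3y left out together, and each library left out in turn.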

Additional observations from a re-analysis of the deposited data

Results flagged for a closer look

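The effect of tissue differed between the 3 DC subsets for 8 of the 10 genes by the F test of edgeR's quasi-likelihood fit, adjusted over all genes, where 31.5% of genes passed. In order of adjusted p these were Havcr2 (6.6e-09), Cd86 (2.1e-07), Pdcd1lg2 (4.1e-07), Cd200 (4.9e-07), Cd274 (5.7e-06), Icosl (9.7e-05), Vsir (0.0023) and Cd80 (0.0035). The direction of the difference was not shared. The tissue effect in CD103+ DCs was the largest of the 3 for Havcr2, Cd86, Pdcd1lg2, Cd274 and Icosl, while for Cd200 it was the smallest and for Vsir and Cd80 that in double-positive DCs was the largest, by the size of the log2 fold change. Groups of 3 libraries were not tested for single outlying values.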

How the results depend on the processing

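Calls of the 10 genes were stable in most settings: of the values recomputed for each gene and comparison, 3715 kept direction and side of the threshold, 53 lost and 18 gained a call, and 25 changed sign, none of them called. The 5 genes higher in all 3 subsets stayed so under each scaling, filter and test, but Cd83 was not called in CD11b+ DCs without lymph node CD11b+ replicate 3. Counts over all genes that moved by over 1.5 times were 3651 for the mean tissue effect with the stricter filter (5590 in the report's fit, fewer genes being tested), and for double-positive against CD11b+ DCs of lamina propria 1289 at an adjusted p under 0.05 and 506 with only the 6 libraries (821). Members called in double-positive against CD11b+ DCs of the node were 5 with total counts (8). Leaving out 1 library at a time gave 1 to 3 members for double-positive against CD11b+ DCs in lamina propria and 6 to 8 in the node, 3 to 5 for CD103+ against CD11b+ DCs in the node, and 3 to 5 for the difference of the tissue effect between double-positive and CD11b+ DCs. Counts of members in the other comparisons moved by at most 1, and the all-gene count for double-positive against CD11b+ DCs in lamina propria ranged from 570.0 to 837.

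Total counts moved the share of higher genes among all called by over 10 percentage points in 4 comparisons, from 39.6% to 19.5% (CD103+ against CD11b+, node), from 41.3% to 19.3% (double-positive against CD11b+, node), and for the differences of the tissue effect from CD11b+ DCs from 50.2% to 29.2% (CD103+) and from 49.0% to 25.3% (double-positive), with median shifts of -0.43, -0.37, -0.36 and -0.31. Members then split into 2 higher and 4 lower in the first, as Cd80 (-1.13) was added, and into 1 and 4 in the second. The cause was not tested.

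Signs turned, at values that were never called, with total counts for Cd274 (-0.15) and Cd83 (-0.062) in the difference between double-positive and CD11b+ DCs, Cd83 (-0.033) in that between CD103+ and CD11b+ DCs, Cd86 (-0.25) between CD103+ and CD11b+ DCs of the node, Icosl (0.013) between double-positive and CD103+ DCs of the node and Cd80 (-0.048) between double-positive and CD11b+ DCs of lamina propria, the last also with only the 6 libraries (-0.0054). Cd80 in CD11b+ DCs was at -0.034 without both libraries that held Xist and Ddx3y. Leaving out 1 library at a time gave ranges that crossed 0 for Cd276 in the difference between CD103+ and CD11b+ DCs (-3.43 to 1.49), between double-positive and CD103+ DCs of the node (-2.88 to 1.98), in the tissue effect of CD103+ DCs (-2.10 to 2.83) and in the mean (-2.61 to 0.29). For Cd80 they were -0.37 to 0.031 in the first of these, -0.11 to 0.11 between double-positive and CD11b+ DCs of lamina propria, and -0.31 to 0.076 and -0.082 to 0.18 in the tissue effects of CD103+ and CD11b+ DCs. For Cd83 they were -0.028 to 0.31 between CD103+ and CD11b+ DCs of lamina propria and -0.25 to 0.089 and -0.0017 to 0.55 in the differences of double-positive from CD103+ and CD11b+ DCs. For Vsir between double-positive and CD103+ DCs of the node the range was -0.20 to 0.030. Dividing by exon length leaves comparisons within a gene as they are, and with total counts 18 of 60 group means moved by over 1 SD.

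Replicate letters recur in all groups. Same-letter deviations correlated at -0.101 to 0.0731 across tissues (0 of 27 pairs over 0.1) and 0.0152 to 0.129 within the node (1 of 9), where the letters were not taken as a pairing. Within lamina propria 8 of 9 pairs were over 0.1, and the exception (0.0750) lay between CD11b+ and double-positive DCs. With the letter as a replicate block, Cd276 lost its call in double-positive against CD11b+ DCs of the node (adjusted p = 0.012, 7 members), and with the letter within tissue it gained a call in the difference of the tissue effect (adjusted p = 0.0091, 6 members). No other call of a member changed under either block, including the lamina propria comparisons that the letters pair, where the block within tissue gave 4 members for CD103+ against CD11b+ and 3 for double-positive against CD103+ DCs, as in the report. Depth limits Cd276 only, with at most 59 counts in a library.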
